A study of Solanum lycopersicum with 36 samples.

Results

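Each gene's uncapped RNA was set against its mRNA in tomato leaves at Light 0h, the start of the light phase, called dawn here. 6 of the 36 libraries of the series were sampled at this time, and they were chosen by their labels: 3 GMUCT libraries made from total RNA and 3 mRNA libraries made from polyA RNA. The plants were Solanum lycopersicum of genotype HeinZ 1706, 4 weeks old, and kept at 25 °C with 12 h of light and 12 h of dark. All 36 libraries share this genotype and regime, the labels name no mutation and no agent, and the sampling time (Light 0h, 4h and 8h, then Dark 0h, 4h and 8h) is what separates the groups within an assay. The comparison asks which genes hold much or little uncapped RNA for the amount of mRNA they have at dawn. The labels do not say whether the 3 libraries of a group came from separate plants, so a p-value here refers to the variation among these particular libraries, part or all of which may be technical.

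A eukaryotic mRNA carries a cap on its 5′ end that protects it and recruits the translation machinery. When decapping enzymes remove the cap, the exposed end is open to exonucleases that digest the RNA from the 5′ side, a role that XRN4 has in the cytoplasm of Arabidopsis. Cuts inside a transcript, such as those guided by microRNAs, also leave a fragment with an uncapped 5′ end. GMUCT sequences RNA from such ends, so a gene's GMUCT reads stand for decay intermediates and cut fragments present at the time of sampling. Their amount depends both on how fast uncapped ends are made and on how fast they are removed.

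The dawn libraries held between 17826749 and 19652681 gene counts in GMUCT and between 15419713 and 27012466 in mRNA. At this depth 3 reads corresponded to 0.171 to 0.18 CPM in GMUCT and 0.105 to 0.232 CPM in mRNA, where CPM is a gene's count for a library of 1000000 gene counts after scaling within the assay. Reads that mapped to several positions, which were not counted in genes, made up 12.8 to 14.3% of GMUCT and 2.11 to 3% of mRNA. Across genes, log2 CPM of the dawn libraries correlated at r of 0.97 to 0.982 within GMUCT and 0.98 to 0.985 within mRNA, and at 0.747 to 0.797 between the assays. No pair of replicates differed by as little as sampling noise, with a chi-square per gene of 18.7 to 45.9. The files give identifiers without names, and 0 of 34075 were found in the reference table of 41476 genes. Genes are therefore given by identifier, without function, length or sequence, and the leaf label could not be checked against marker genes.

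Uncapped RNA followed mRNA loosely at dawn. Over the 19172 genes tested, the log2 ratio of GMUCT to mRNA had a median of 0.48 (1.39-fold) with quartiles at -0.59 and 1.52, and the 5th and 95th percentiles lay at -2.41 and 3.3. The median over genes was 0.39, 0.46 and 0.47 in the 3 pairs of libraries with the same number (SD 0.0395). The ratio of 9172 genes (47.8%) lay within 2-fold of the median. For comparison, replicates of a gene had a median SD of 0.215 in GMUCT and 0.248 in mRNA on the log2 CPM scale. GMUCT exceeded mRNA by more than 4-fold in 1653 genes (8.62% of those tested) and fell short of it by more than 4-fold in 729 genes (3.8%), at adjusted p under 0.05 in edgeR's quasi-likelihood test against that fold. Against a ratio of 1, 8814 genes (46%) were higher and 4713 (24.6%) were lower in GMUCT. In these whole-leaf samples, fewer cells of a type and less RNA per cell cannot be told apart. The point of a ratio of 1 rests on scaling each assay by itself. With 1 scaling over all 6 libraries, the median was 0.06, and 999 genes were higher and 1129 lower beyond 4-fold. The split into higher and lower genes is thus set by the scaling, and the ratios are best read against the median. Gene lengths were not used, and mRNA was read as pairs of 150 nt against single ends of 50 nt in GMUCT. The part of length and of read placement in a gene's ratio was therefore not tested. GMUCT was also made from total RNA and mRNA from polyA RNA. A transcript with little polyA tail could thus have a high ratio, and the part of this difference was not tested either.

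**Figure D1:**
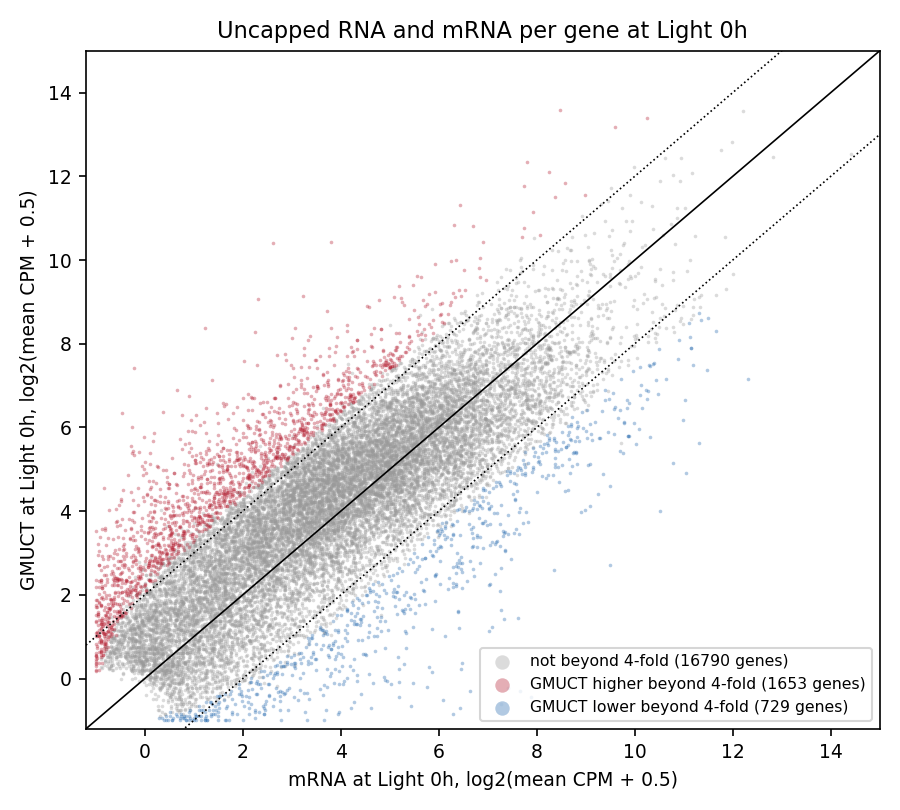
Mean CPM of each of the 19172 genes tested at Light 0h, GMUCT on the vertical and mRNA on the horizontal axis, both as log2 of CPM plus 0.5; the solid line marks equal values and the dotted lines a 4-fold difference. The 1653 genes with GMUCT higher beyond 4-fold lie mostly at low and middle mRNA levels, and the 729 with GMUCT lower extend to high mRNA levels.

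The genes with the largest ratios combined abundant uncapped RNA with scarce mRNA. gene:Solyc05g013630.1 had 1060, 1340 and 1670 CPM in GMUCT, against 7.48, 4.72 and 4.65 CPM in mRNA, a log2 ratio of 7.9 ± 0.34 (SE, n = 3 each, adjusted p = 2.33e-06 beyond 4-fold in edgeR). Every GMUCT library was far above every mRNA library, and the assays did not overlap. gene:Solyc03g034370.1 had 229, 256 and 506 CPM in GMUCT, against 2.8, 1.08 and 1.7 CPM in mRNA, a log2 ratio of 7.39 ± 0.45 (adjusted p = 1.1e-05). Replicate 3 of GMUCT was the highest, and again no values overlapped. Both genes kept this state through the day. The GMUCT mean of gene:Solyc05g013630.1 ranged from 991 to 1490 CPM over the 6 times while its mRNA stayed between 1.74 and 11.6 CPM, and gene:Solyc03g034370.1 had GMUCT means of 210 to 445 CPM against 1.63 to 2.2 CPM in mRNA. Neither ratio at dawn passed the test against the mean of the other 5 times, with log2 differences of 0.28 ± 0.41 and 0.17 ± 0.55 (adjusted p = 0.766 and 0.906).

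At the other end, gene:Solyc08g078700.2 had 5.92, 8 and 4.21 CPM in GMUCT, against 585, 935 and 654 CPM in mRNA, a log2 ratio of -6.9 ± 0.34 (SE, n = 3 each, adjusted p = 5.23e-06 beyond 4-fold in edgeR). Its mRNA means were high at dawn and late in the night, with 725 ± 185 CPM at Light 0h (SD, n = 3) and 832 ± 347 at Dark 8h, against 35.5 ± 5.21 at Light 8h. Its GMUCT mean stayed between 0.974 and 9.8 CPM at all 6 times. Solyc01g108910 had 22.3, 14.5 and 10.1 CPM in GMUCT, against 1110, 1840 and 1440 CPM in mRNA, a log2 ratio of -6.55 ± 0.38 (adjusted p = 9.64e-06). No GMUCT library of either gene reached any mRNA library. For Solyc01g108910 the ratio was also lower at dawn than over the other 5 times, by 2.73 ± 0.47 on the log2 scale (adjusted p = 0.000744). From Light 4h on, its ratio of mean levels ran through -6.29, -3.62, -2.31, -3.32 and -3.3 to Dark 8h, so that dawn and Light 4h stood below the rest.

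The genes with the most reads differed widely in how unequal their shares were. In GMUCT the highest gene was Solyc07g066310, with 13000, 14100 and 9470 CPM, against 338, 409 and 315 CPM in mRNA, a log2 ratio of 5.11 ± 0.3 (adjusted p = 1.48e-05 beyond 4-fold in edgeR). The next, Solyc10g086580, had 11200, 9490 and 15600 CPM in GMUCT, against 5190, 3970 and 4990 CPM in mRNA, a log2 ratio of 1.36 ± 0.28 that passed the test against equality (adjusted p = 0.00144) but not that beyond 4-fold. The assays did not overlap in either gene. In mRNA the highest was gene:Solyc07g065840.2, with 5860, 6060 and 5850 CPM in GMUCT, against 17400, 25400 and 22400 CPM in mRNA, a log2 ratio of -1.87 ± 0.27 (adjusted p = 0.000138 against equality). Solyc09g010630 followed, with 5630, 5420 and 5840 CPM in GMUCT, against 6250, 8510 and 7080 CPM in mRNA. Its log2 ratio of -0.37 ± 0.24 did not pass the test against equality (adjusted p = 0.184), although each mRNA library lay above each GMUCT library. Near the median ratio stood Solyc02g069290, with 225, 235 and 233 CPM in GMUCT, against 168, 141 and 189 CPM in mRNA (log2 ratio 0.48), and gene:Solyc09g072865.1, with 165, 125 and 132 CPM in GMUCT, against 111, 113 and 80.5 CPM in mRNA (0.47). In both, GMUCT was above mRNA in every library.

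**Figure D2:**
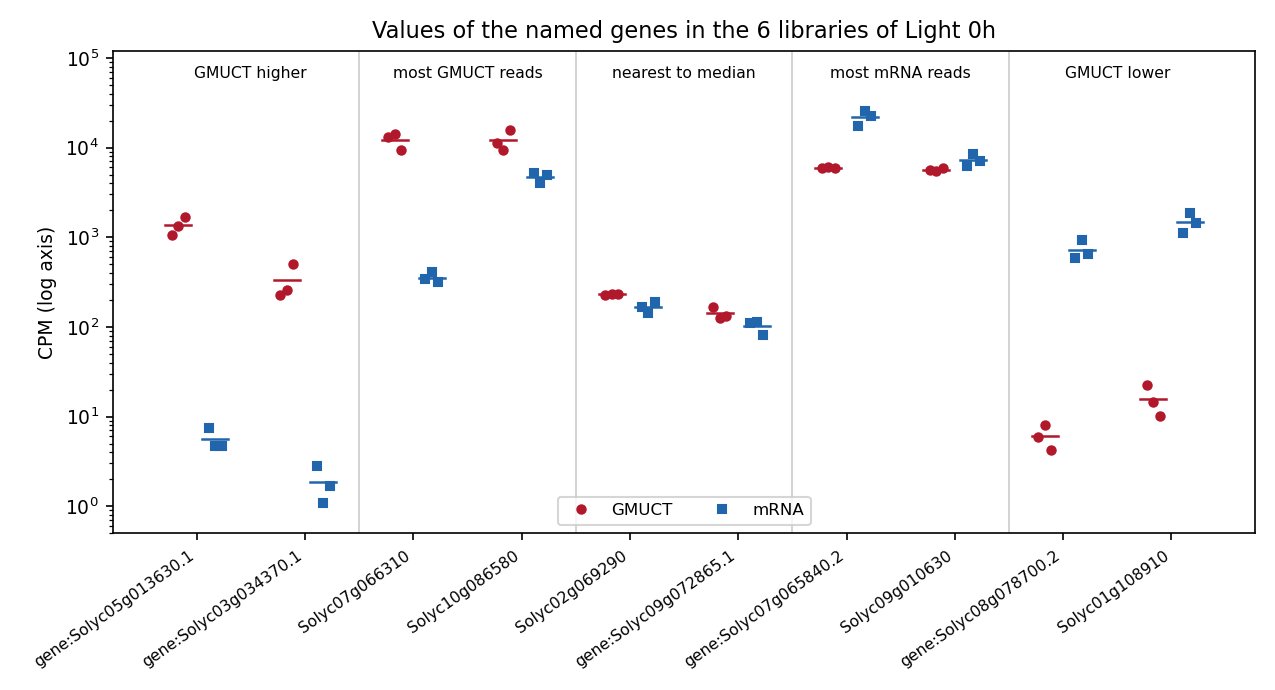
CPM on a log axis of 10 genes in each of the 6 libraries of Light 0h, with GMUCT as circles and mRNA as squares, a point per library and a line at the mean. The assays are separated in every gene shown, from about 1060 to 1670 CPM in GMUCT against 4.65 to 7.48 CPM in mRNA for gene:Solyc05g013630.1 at the left to 10.1 to 22.3 against 1110 to 1840 CPM for Solyc01g108910 at the right.

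Few identifiers were read in 1 assay alone at an appreciable level. Of the 34075 identifiers, 22568 had reads in both assays at dawn and 9231 in neither. A further 1375 had reads in GMUCT but not in mRNA, and 901 had reads in mRNA but not in GMUCT; a mean of 10 CPM was reached by 1 and 2 of them. Solyc12g032930 had 211, 62 and 290 reads in GMUCT (12.6, 3.54 and 17.2 CPM), against 0 in each mRNA library. Set against a floor of 3 counts over the mRNA group (0.0507 CPM), GMUCT was at least 219-fold higher. In Solyc11g066800, with 2.63, 1.31 and 9.84 CPM in GMUCT against 0 in mRNA, the same floor gave at least 90.6-fold higher, or 38.9-fold without replicate 3 of GMUCT. Both genes varied several-fold between GMUCT replicates. gene:Solyc07g052180.1 had 0 reads in each GMUCT library, against 841, 42 and 70 reads in mRNA (29.4, 3.25 and 3.97 CPM), and was at least 208-fold lower in GMUCT, with a floor of 0.0587 CPM. This bound rested on replicate 1 of mRNA, and was 61.5-fold without it. Solyc10g009390 had 0 reads in GMUCT, against 18991, 0 and 0 reads in mRNA. Its reads came from replicate 1 alone, so no fold is given.

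The ratio at dawn fell along the scale of mRNA abundance. To keep the dawn mRNA values out of the grouping, genes were ordered by their mRNA in the Dark 8h libraries, sampled 4 h earlier in the cycle. Genes under 1 CPM of mRNA there (n = 2125) had a median log2 ratio at dawn of 2.06, and 27.4% of them were higher in GMUCT beyond 4-fold. The median was 0.92 from 1 to 10 CPM (n = 6729), 0.22 from 10 to 100 CPM (n = 8286) and -0.88 from 100 to 1000 CPM (n = 1926). In the 106 genes at 1000 CPM or more it was -2.2, and 36 of them (34%) were lower in GMUCT beyond 4-fold. Ordered by their GMUCT level at Dark 8h instead, the genes showed the opposite slope at the ends: the median was -1.11 under 1 CPM (n = 1200), between 0.51 and 0.65 from 1 to 1000 CPM, and 1.5 at 1000 CPM or more (n = 57). Accordingly, the 1653 genes of high ratio had a median of 24.9 CPM in GMUCT and 2.09 CPM in mRNA at dawn, and the 729 of low ratio had 3.2 CPM in GMUCT and 42.1 CPM in mRNA. In the Dark 8h libraries, which the choice of these genes did not use, the medians were 22.5 and 2.24 CPM for the high group and 4.92 and 44.7 CPM for the low group. Levels at Dark 8h were thus similar to those at dawn, and grouping by them was not independent of the levels that form the dawn ratio. A fall with mRNA level and a rise with GMUCT level can arise from this dependence alone. Its part in the slopes was not tested. Among the 9287 genes that reached 10 CPM in GMUCT and in mRNA at dawn, the median ratio was 0.18. The filter on low counts kept genes with enough reads in 1 assay alone. Genes under 1 CPM in mRNA could therefore enter through their GMUCT reads, and those under 1 CPM in GMUCT through their mRNA reads. The medians of these lowest groups, 2.06 and -1.11, thus depend in part on the filter. CPM is a share of reads and not a level per length, and the part of gene length in these medians was not tested.

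**Figure D3:**
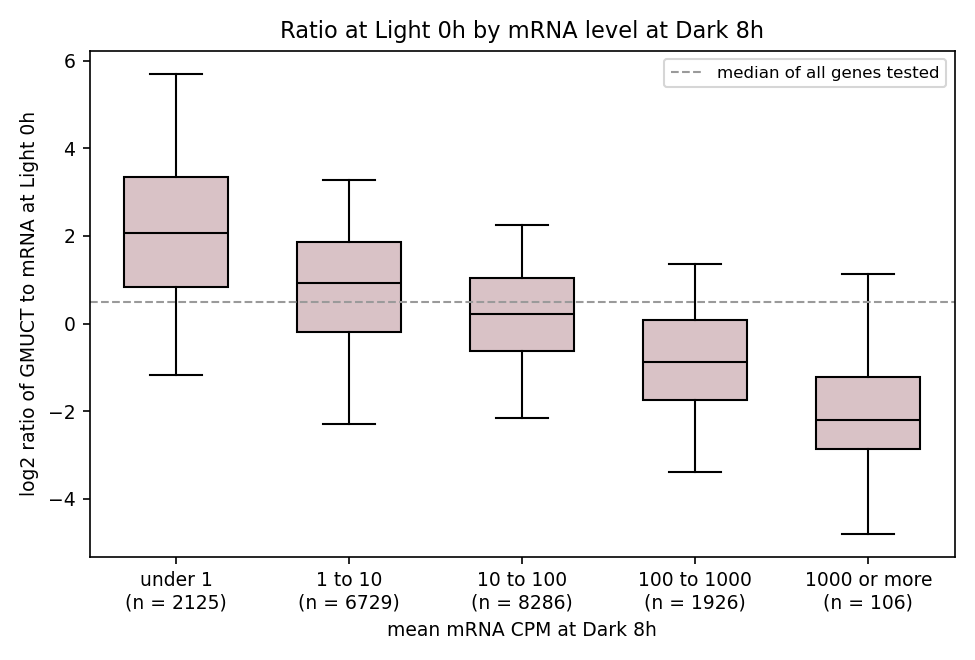
Log2 ratio of GMUCT to mRNA at Light 0h for the genes tested, grouped by mean mRNA CPM at Dark 8h; boxes show the median and quartiles, whiskers the 5th and 95th percentiles, and the dashed line the median of all genes. The medians step down from 2.06 in the group under 1 CPM to -2.2 in the group at 1000 CPM or more. Genes under 1 CPM of mRNA could enter the test through their GMUCT reads alone, so the first box depends in part on this filter. Levels at Dark 8h are similar to those at dawn, so the grouping is not independent of the ratio.

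Medians for chromosomes 1 to 12, as the identifiers number them, ran from 0.41 (chromosome 6) to 0.59 (chromosome 8). The 7 tested genes numbered chromosome 0 stood apart, with a median of 6.53, and 5 of them (71.4%) were high beyond 4-fold. The 3348 genes whose identifier carries the prefix gene: spread more widely than the 15824 without it, with quartiles of -0.87 and 1.77 against -0.54 and 1.48 around medians of 0.45 and 0.48. Of the prefixed genes, 11.4% were high and 6.15% low beyond 4-fold, against 8.03 and 3.31% of the others. Of the low genes, 108 of 729 (14.8%) stood next to another low gene in the order of identifiers tested, against 7.4% of all genes tested. For the high genes the shares were 20% (330 of 1653) and 16.4%. The longest runs held 4 low and 5 high genes in a row. Whether such neighbours are near-identical copies or overlapping genes that share reads could not be checked, so their single values are uncertain.

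Most genes that stood out at dawn stood out at the other times too. In libraries that the choice did not use, a log2 ratio above 2 was met again in 1278 of the 1653 high genes (77.3%) at Light 4h and in 1176 (71.1%) at Light 8h. At Dark 0h, 4h and 8h it was met in 1223 (74%), 1324 (80.1%) and 1403 (84.9%) of them, and over the 5 times in 10.8 to 15.6% of all genes tested. All 6 times were above 2 in 825 of them (49.9%), against 4.8% of all genes tested. Of the 729 low genes, the shares below -2 from Light 4h to Dark 8h, in the order of sampling, were 56, 58.2, 63.5, 69 and 80.8%, against 4.01 to 6.37% of all genes tested. All 6 times were below -2 in 222 low genes (30.5%), against 1.34% of all. The ratio was above 0 at all 6 times in 1614 high genes (97.6%), against 45.2% of all, and below 0 in 652 low genes (89.4%), against 20.5% of all. The counts over all 6 times include Light 0h, by which these genes were chosen. Their excess over all genes is therefore set in part by the choice. Across the 19172 genes, the ratio at dawn correlated most with the ratio at Dark 8h (r = 0.934) and least with that at Dark 0h (0.779), and the values in between were 0.904 for Dark 4h, 0.882 for Light 4h and 0.856 for Light 8h. These points share gene lengths and the placement of reads, so the values describe the genes and carry no test. Dawn was rarely an extreme of the day: the ratio was highest at Light 0h in 1921 of 19161 genes (10%) and lowest there in 2220 (11.6%), against 31 and 28.7% at Dark 0h and 9.76 and 11.4% at Dark 8h. Among genes averaging 10 CPM or more in each assay, those of high ratio spanned a median log2 range over the other 5 times of 0.89 in GMUCT and 1.49 in mRNA (n = 375), and those of low ratio 1.18 and 1.61 (n = 305), against 0.73 and 1.02 in all such genes (n = 9895).

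The ratio at dawn was next compared with the mean ratio of the other 5 times in a fit of all 36 libraries, where any property of a gene that is constant over the day cancels. Differences between libraries do not cancel. Over all times, reads that mapped to several positions made up 8.6 to 40.2% of GMUCT, with the most in replicate 2 of Dark 4h. Gene counts in mRNA ran from 6632784 in replicate 1 of Dark 4h to 27126312. The part of these differences in the changes was not tested. It was higher at dawn in 467 of 19161 genes (2.44%) and lower in 511 (2.67%) at adjusted p under 0.05 in edgeR's quasi-likelihood test, and 3801 genes passed an unadjusted p of 0.05. The median change was 0.97 in the higher genes and -1.09 in the lower ones on the log2 scale. The higher genes had a median change of 0.4 in GMUCT and -0.53 in mRNA, and the lower genes -0.66 in GMUCT and 0.41 in mRNA, so both assays moved apart. The larger part came from GMUCT in 211 of the higher genes (45.2%) and in 283 of the lower ones (55.4%), and from mRNA in the others. Of the 467, 92 were also higher than mRNA beyond 4-fold at dawn, against 8.62% of all genes tested there. Of the 511, 112 were lower, against 3.8% of all. Both calls use the same dawn libraries, so this overlap is not independent support. These counts rested on single dawn libraries: without replicate 2 of mRNA they were 242 higher and 230 lower, without replicate 2 of GMUCT 293 and 293, without replicate 3 of mRNA 307 higher, and without replicate 3 of GMUCT 309 lower. The split also moved with scaling, to 315 higher and 686 lower when library totals were used without factors.

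**Figure D4:**
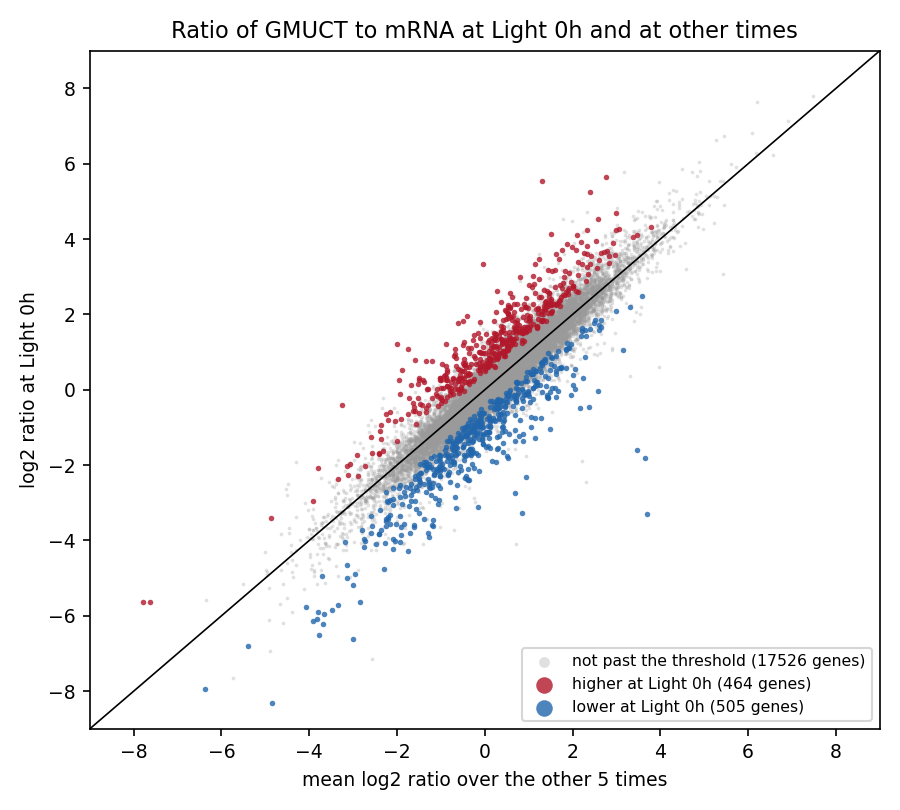
Log2 ratio of GMUCT to mRNA at Light 0h on the vertical axis against its mean over the other 5 times on the horizontal axis, a point per gene that was tested in both comparisons, with the line of equality. Most genes lie close to the line; of the 467 genes higher and 511 lower at Light 0h, the 464 and 505 drawn here lie above and below it.

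Solyc02g093720 was one of the 2 genes named for a ratio higher at dawn than over the other times. It had 220, 178 and 174 CPM in GMUCT, against 4.3, 2.24 and 4.2 CPM in mRNA, and the change against the other 5 times was 4.23 ± 0.41 on the log2 scale (adjusted p = 3.32e-07, edgeR). From Light 0h to Dark 8h, its GMUCT means were 191, 200, 55.8, 9.97, 1.53 and 6.01 CPM. Its mRNA means over the same times were 3.58, 177, 15.9, 2.47, 1.31 and 0.614 CPM. At dawn, then, GMUCT already stood near its highest mean while mRNA reached its own only at Light 4h. Solyc05g051580 had 3.23, 4.63 and 7.77 CPM in GMUCT, against 2.66, 1.16 and 2.1 CPM in mRNA, a change of 4.26 ± 0.47 against the other times (adjusted p = 1.76e-06). Its GMUCT means were 5.21, 55.3, 8.98, 0.7, 0.107 and 0.162 CPM from Light 0h to Dark 8h, and its mRNA means 1.97, 106, 42.8, 6.47, 3.69 and 1.45 CPM, so dawn was the only one of the 6 times with the GMUCT mean above the mRNA mean.

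Among genes whose ratio was lower at dawn, Solyc08g007240 had 4, 6 and 2 reads in GMUCT (0.239, 0.343 and 0.119 CPM), against 19, 50.1 and 38.7 CPM in mRNA. The change against the other 5 times was -4.1 ± 0.61 on the log2 scale (adjusted p = 0.000127, edgeR), or -3.2 without the Dark 0h libraries. From Light 0h to Dark 8h, its GMUCT means were 0.234, 0.355, 93.7, 218, 27 and 8.53 CPM, against 36, 69.3, 321, 157, 267 and 88.5 CPM in mRNA. Dawn and Light 4h thus had the fewest reads of uncapped RNA and also the least mRNA. The log2 ratio of mean levels was -5.63 at dawn and -6.35 at Light 4h, so dawn was not the lowest time of this gene. Solyc09g084470 had 6.46, 0.514 and 0.0593 CPM in GMUCT, against 29.2, 28.5 and 25.6 CPM in mRNA, a change of -7.45 ± 1.97 (adjusted p = 0.0232). The GMUCT replicates of this gene disagreed widely, spanning 4.33 to 1250 CPM at Dark 8h, and the call was lost without replicate 3 of GMUCT at Dark 4h (adjusted p = 0.64), replicate 2 of GMUCT at dawn (0.0917) or replicate 3 of GMUCT at dawn (0.0926). The change was -10.42 without replicate 1 of GMUCT at dawn, -8.33 without replicate 3 of mRNA at Dark 0h, -6.85 without replicate 3 of GMUCT at Light 4h and -5.81 without replicate 3 of GMUCT at Dark 4h.

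Against Dark 8h, the last time sampled before dawn, few ratios passed the test. The ratio was higher at dawn in 92 of 19161 genes (0.48%) and lower in 77 (0.402%) at adjusted p under 0.05 in edgeR's quasi-likelihood test, and 1972 genes passed an unadjusted p of 0.05. The median change was 1.71 in the higher genes and -1.96 in the lower ones on the log2 scale. Here the change lay mainly in GMUCT, whose median change was 1.33 in the higher genes and -1.3 in the lower ones, against -0.04 and 0.43 in mRNA. GMUCT contributed the larger part in 68 of the 92 (73.9%) and in 56 of the 77 (72.7%). The comparisons with Dark 8h and with the other 5 times share the dawn libraries and those of Dark 8h, and 56 genes were higher in both (60.9% of the 92 and 12% of the 467) and 51 lower in both (66.2% of the 77 and 9.98% of the 511). In libraries outside the Dark 8h comparison, mRNA at Light 4h was set against its mean at Light 8h, Dark 0h and Dark 4h. The difference had a median of 1 on the log2 scale in the 92 higher genes. It exceeded 1 in 46 (50%) of them and lay under -1 in 16 (17.4%), against 7.94 and 8.29% of all genes tested. In the 77 lower genes the median was -0.24, with 28 (36.4%) under -1 and 8 (10.4%) above 1. The share above 1 in these lower genes was close to the overall 7.94%.

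The counts against Dark 8h moved with the fit and with single libraries. Fitted on the 12 libraries of Light 0h and Dark 8h alone, they were 37 higher and 18 lower, and DESeq2 gave 181 and 146. Without replicate 3 of mRNA at dawn they were 45 higher and 34 lower, without replicate 2 of mRNA at dawn 57 and 48, and without replicate 1 of mRNA at dawn 58 higher. Without replicate 2 of GMUCT at dawn they were 61 and 38, and without replicate 3 of GMUCT at dawn 57 and 40. Leaving out replicate 3 of GMUCT at Dark 8h gave 51 and 31, leaving out replicate 3 of mRNA at Dark 8h gave 61 and 32, and leaving out replicate 1 of GMUCT at Dark 8h gave 132 lower. Library totals without factors turned the split to 52 higher and 97 lower.

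The gene with the largest rise against Dark 8h by the naming rule was Solyc05g051580, whose log2 change was 4.44 ± 0.74 (SE; edgeR, adjusted p = 0.00209). Its GMUCT mean was 5.21 ± 2.32 CPM at Light 0h, against 0.162 ± 0.061 at Dark 8h, while its mRNA mean was 1.97 ± 0.756 CPM, against 1.45 ± 0.404 (SD, n = 3 each). The GMUCT value at Dark 8h rests on 2, 3 and 4 reads, so the size of this change is loosely set. Solyc03g115900 had 36.5, 53.2 and 54.1 CPM in GMUCT and 63, 26.8 and 48.1 CPM in mRNA at dawn, values that overlap, against means of 0.807 ± 0.313 CPM in GMUCT and 9.08 ± 5.88 CPM in mRNA at Dark 8h. Its ratio rose by 3.54 ± 0.71 (adjusted p = 0.0094). GMUCT thus differed more between these times than mRNA did, and at Light 4h the means were 1990 CPM in GMUCT and 1970 CPM in mRNA. Over the whole day its ratio at dawn was not set apart, at 0.2 ± 0.48 against the other 5 times (adjusted p = 0.873).

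Solyc09g084470 had the largest fall, with 2.35 ± 3.57 CPM in GMUCT at Light 0h, against 599 ± 624 at Dark 8h, and 27.7 ± 1.88 CPM in mRNA, against 2.22 ± 2.13 (SD, n = 3 each). The log2 change of -11.56 ± 2.51 (adjusted p = 0.0186, edgeR) was lost without any 1 of 5 libraries, with adjusted p between 0.0512 and 0.0762: replicates 2 and 3 of mRNA and replicate 3 of GMUCT at Dark 8h, and replicates 2 and 3 of GMUCT at dawn. Its size hung on single libraries too: it was -14.53 without replicate 1 of GMUCT at dawn, -12.65 without replicate 1 of mRNA at Dark 8h and -10.43 without replicate 3 of GMUCT at Dark 8h. Solyc07g041920 had 17.8, 15.1 and 11 CPM in GMUCT, against 74.5, 74.8 and 75.6 CPM in mRNA at dawn. At Dark 8h its means were 67.6 ± 80.3 CPM in GMUCT and 10.3 ± 2.61 CPM in mRNA. Its ratio fell by 5.06 ± 1.2 (adjusted p = 0.033), and this call was lost without any 1 of 10 of the 12 libraries, with adjusted p of 0.0569 to 0.234; the change was -3.42 without replicate 3 of GMUCT at Dark 8h. In both genes the GMUCT libraries of Dark 8h spread widely, from 4.33 to 1250 CPM and from 9.74 to 159 CPM.

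**Figure D5:**
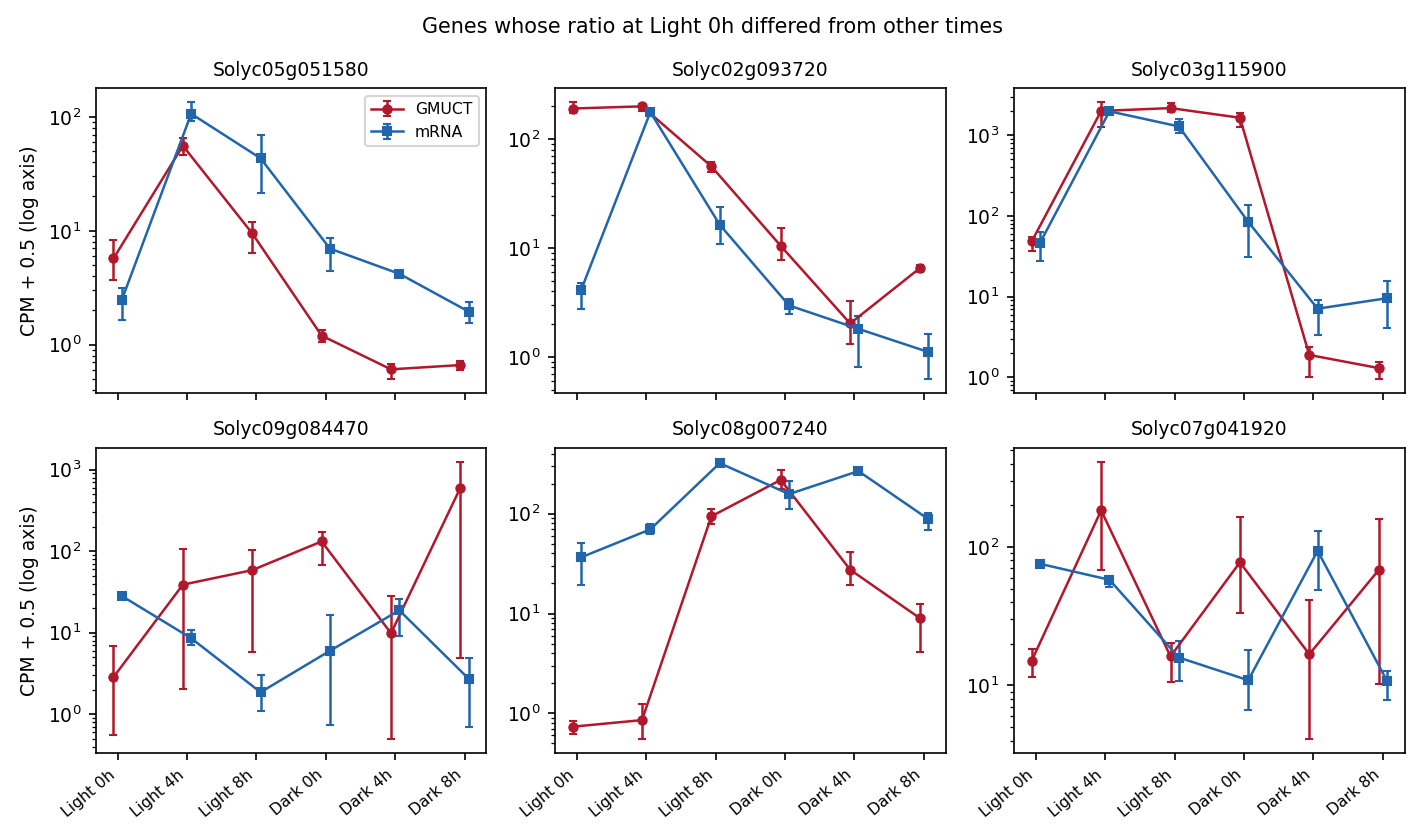
Mean CPM plus 0.5 on a log axis at the 6 times for 6 genes whose ratio at Light 0h differed from other times, with GMUCT as circles and mRNA as squares; bars run from the lowest to the highest of 3 libraries. Upper row, genes with a higher ratio at dawn, such as Solyc02g093720 with 191 CPM in GMUCT against 3.58 in mRNA; lower row, genes with a lower ratio, of which Solyc09g084470 and Solyc07g041920 have wide GMUCT bars.

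Genes were also grouped by how their mRNA changed across dawn, from Dark 8h to Light 4h, in a fit without the dawn libraries, a grouping added after the data had been seen. Of 19711 genes tested in mRNA, 4586 (23.3%) were higher and 5047 (25.6%) lower at Light 4h than at Dark 8h at adjusted p under 0.05 in edgeR. The dawn ratio had a median of 0.62 in the 4374 rising genes with a value, 0 in the 4945 falling genes and 0.57 in the 9348 genes in neither group. Beyond 4-fold, GMUCT was higher in 9.33% and lower in 2.15% of the rising genes, against 4.13 and 7.56% of the falling genes. With changes of over 2-fold only, the medians were 0.8 in 2781 rising genes and -0.15 in 2723 falling genes. The groups also differed in mRNA level, and the gap varied between levels of mRNA at Dark 8h. The medians of rising and falling genes were 1.98 and 1.9 under 1 CPM, 0.97 and 0.66 from 1 to 10 CPM, 0.2 and 0.19 from 10 to 100 CPM, and -0.44 and -0.92 from 100 to 1000 CPM. At 1000 CPM or more they were -1.62 in 9 rising and -2.32 in 81 falling genes. The gap of 0.62 over all genes was 0.28 among genes with 10 CPM or more in each assay. At times outside the grouping it was not peculiar to dawn. On the scale of mean levels and in the order Light 0h, Light 8h, Dark 0h and Dark 4h, the rising genes had medians of 0.57, 0.14, 1.06 and 0.52, and the falling genes 0, 0.34, -0.3 and 0.04.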

How the data were processed

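The authors deposited unscaled read counts per gene for each library. The tools were cutadapt, STAR 2.4.2a and HTSeq, per the submitters' processing notes. The sources used here do not give the genome build, annotation or strand setting. Reads of genes that overlap on opposite strands may therefore be mixed. The 5 counters of reads outside genes entered neither library sizes nor tests.

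edgeR 4.0.16 under R 4.3.3 was used on the counts, with DESeq2 1.42.0 as an alternative. TMM factors were computed within each assay over its 18 libraries. Genes passing filterByExpr were fitted by glmQLFit over the 6 dawn libraries, and tested with glmTreat beyond a log2 ratio of 2 and with glmQLFTest against 0. Contrasts between times were interactions of assay and time over all 36 libraries and 12 groups, on genes that passed in both assays. P-values were adjusted by Benjamini and Hochberg with a threshold of 0.05. The SE is the absolute log2 change divided by the square root of F. Ratios of mean levels used a pseudocount of 0.5 CPM. The tests were tried on simulated counts before use. Counting floors cover counting error only.

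Named genes are, per comparison and direction, the 2 with the largest change past the threshold, with at least 10 CPM in the higher assay and 1 CPM in the other (10 CPM in both over all times for the contrasts) and without overlap of replicates (for the other 5 times, overlap in at most 1). Also named are the 2 with the most reads in each assay, the 2 nearest the median ratio from 100 CPM up, and the 2 highest read in 1 assay alone. Gene lists and cell type markers could not be used, since no identifier matched a name. The comparison, groups and rules were chosen with earlier results of these data known. At dawn, deviations of unlike-numbered GMUCT and mRNA libraries correlated at r from -0.331 (GMUCT 3 with mRNA 2) to 0.289 (GMUCT 1 with mRNA 2). Whether any of those share RNA was not tested. Same-numbered GMUCT and mRNA libraries did not deviate together at dawn (r = -0.157, 0.104 and 0.0979), so the main tests did not pair libraries by number. The numbers were used in the medians per pair and in the replicate block. They also entered the naming rule for contrasts, where overlap refers to GMUCT-minus-mRNA differences of same-numbered libraries. The labels do not say that these libraries share RNA.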

Additional observations from a re-analysis of the deposited data

Results flagged for a closer look

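The ratio of GMUCT to mRNA differed between dawn and other times by a test of the difference itself (the interaction of assay and time in edgeR) in the counts given above, 467 genes higher and 511 lower against the other 5 times, and 92 higher and 77 lower against Dark 8h.

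Among the named genes, the ratio of Solyc05g051580 was higher at dawn by 4.26 against the other times and by 4.44 against Dark 8h on the log2 scale, that of Solyc02g093720 by 4.23 against the other times, and that of Solyc03g115900 by 3.54 against Dark 8h. The change of Solyc09g084470 was -7.45 against the other times and -11.56 against Dark 8h, that of Solyc08g007240 -4.1 against the other times, and that of Solyc07g041920 -5.06 against Dark 8h. GMUCT of Solyc09g084470 ranged from 4.33 to 1250 CPM and that of Solyc07g041920 from 9.74 to 159 CPM among the 3 libraries of Dark 8h, and the part of this spread in the changes was not tested beyond leaving out each library.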

How the results depend on the processing

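With only genes of 10 CPM or more in each assay, GMUCT was higher beyond 4-fold in 271 genes and lower in 227, and past the plain test in 3828 and 2789, with a median ratio of 0.18; fewer genes are tested there by construction. Thresholds of 2-fold and 8-fold gave 5047 and 430 higher and 2347 and 203 lower genes. Joint TMM scaling gave 999 higher and 1129 lower and a median of 0.06, and library totals a median of 0.42. Leaving out each dawn library gave 1377 to 1593 higher and 610 to 716 lower genes beyond 4-fold.

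Against the other 5 times, DESeq2 gave 763 higher genes, of which 466 were shared with the 467, and leaving out single libraries gave 242 to 521 higher and 230 to 590 lower. Without Dark 0h the counts were 478 and 448, with 307 and 312 shared. Against Dark 8h, library totals gave 52 higher, the 12 libraries of these times alone 37 and 18, and DESeq2 181 and 146; leaving out single libraries gave 45 to 92 higher and 31 to 132 lower. A replicate block gave 285 higher and 277 lower against the other times, of which 264 and 268 were shared, and 59 and 30 against Dark 8h. It left 1646 and 723 genes beyond 4-fold. Under it the adjusted p was 0.061 for Solyc03g115900 (log2 change 3.49), 0.212 for Solyc07g041920, and 0.0858 and 0.2 for Solyc09g084470 against the other times and Dark 8h. The causes of these shifts were not tested. No change of a named gene turned its sign under the alternatives run. Which direction held more genes did turn. Beyond 4-fold it turned with joint TMM. Against the other times it turned with RLE factors (512 higher and 453 lower), without Dark 0h and in DESeq2 (763 and 693). The same held with the replicate block (285 and 277), and without replicate 2 of mRNA (242 and 230) or replicate 3 of GMUCT (312 and 309) at dawn. Against Dark 8h it turned with library totals (52 and 97) and without replicate 1 of mRNA at dawn (58 and 63). It also turned there without replicate 1 (88 and 132) or replicate 2 (68 and 74) of GMUCT at Dark 8h.

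Values under about 0.2 CPM rest on about 3 reads or fewer, so ratios that include one are loosely set at this depth.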
